A study of Homo sapiens with 12 samples.

Results

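The genes described here are 42 genes of mitosis and the cell cycle, picked with earlier results of these data known and selected in the tables by gene symbol: mitotic kinases, subunits of the anaphase-promoting complex, cyclin-dependent kinases with a cyclin and CDC25 phosphatases, centromere and kinetochore proteins, spindle checkpoint proteins, spindle, centrosome and cytokinesis proteins, and a cohesin subunit. What was followed was their alternative splicing. An event counted when its gene was among the 42 and it had a value in every column, which left 111 of 10358 events in 29 of the 42 genes in the authors' MISO table, and 409 of 60623 events in 41 of the 42 in their rMATS table. The series measured poly(A) RNA of HEK293T cells, a human embryonic kidney line, in which a protein arginine methyltransferase (PRMT) was depleted by short hairpin RNAs. The groups were stable lentiviral knockdowns of PRMT1, PRMT3, PRMT4, PRMT5 and PRMT7 with 2 hairpin libraries each, of PRMT6 with 1 hairpin library, and a scramble hairpin with 1 library, 12 libraries in all. Each table gives 1 value per target, so the hairpins of a target cannot be set against each other, and the single scramble library is shared by all 6 comparisons. Transcript levels were not analysed here, so neither the depth of the knockdowns nor the markers of the cell line are given. Each value is an average over a whole culture, in which cells of every cell cycle phase are mixed, and a change in all cells cannot be told apart from a change in the mixture.

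PRMTs add methyl groups to arginines, and many of their substrates are RNA-binding and splicing proteins. A cell entering mitosis passes through ordered steps: cyclin-dependent kinases start it, Aurora and Polo kinases build the spindle and correct its attachments, kinetochores bind the microtubules, the spindle checkpoint holds the cell until all are bound, and the anaphase-promoting complex (APC/C) then marks securin and cyclin B for destruction. Many genes of this machinery are spliced in alternative forms, and an exon whose length is a multiple of 3 can be left out without moving the reading frame, whereas a retained intron usually brings in a stop codon.

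The sequences of the alternative parts on which the results turn are printed first, 5′ to 3′ on the strand of the gene, from GENCODE v29 on build GRCh38. The authors' coordinates are on GRCh37, so each part was found in GENCODE by its gene, strand, length and flanking intron lengths and not by converting positions. The intron of AURKB (chr17:8206889-8207175, minus strand, retained in transcript AURKB-212) is shown because it was lower in all 6 knockdowns. Capitals mark its first and last pair of bases and the first stop codon in the frame of the coding transcript, at base 92 of its 287 bases. The first 100 of 301 bases of an intron of CENPT (chr16:67830290-67830389, minus strand) follow, with the 5′ splice site and the first in-frame stop, at base 36, in capitals.
AURKB intron: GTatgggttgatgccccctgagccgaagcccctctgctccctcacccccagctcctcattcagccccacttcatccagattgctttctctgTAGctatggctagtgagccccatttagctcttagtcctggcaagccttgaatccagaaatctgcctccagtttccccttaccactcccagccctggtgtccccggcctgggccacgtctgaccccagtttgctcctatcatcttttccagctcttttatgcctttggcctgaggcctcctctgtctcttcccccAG
CENPT intron, bases 1 to 100: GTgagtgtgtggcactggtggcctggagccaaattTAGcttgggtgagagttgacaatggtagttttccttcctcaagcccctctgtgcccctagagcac

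A second set comprises exons that keep the reading frame, together with the BOD1 exon, which does not. The NUMA1 exon (chr11:72012401-72012442, minus strand), the PRC1 exon (chr15:90969079-90969120, minus strand) and an exon of KIF23 (chr15:69425282-69425323, plus strand) are each 42 bases long. The 312-base exon of KIF23 is given by its first 150 bases (chr15:69440768-69440917, plus strand) and the 111-base exon of STAG2 whole (chrX:124090854-124090964, plus strand). Of the 852-base exon of DEPDC1, bases 198 to 317 are shown (chr1:68482581-68482700, minus strand), because a shorter form of this exon, 257 bases long, ends inside them at the GT written in capitals. The BOD1 exon (chr5:173613131-173613255, minus strand) has 125 bases, which is not a multiple of 3. None of the printed exons of this set holds a stop codon in the frame of its coding transcript.
NUMA1 exon: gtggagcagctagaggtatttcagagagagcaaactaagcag
PRC1 exon: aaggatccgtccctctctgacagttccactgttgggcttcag
KIF23 short exon: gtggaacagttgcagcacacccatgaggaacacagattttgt
KIF23 long exon, bases 1 to 150: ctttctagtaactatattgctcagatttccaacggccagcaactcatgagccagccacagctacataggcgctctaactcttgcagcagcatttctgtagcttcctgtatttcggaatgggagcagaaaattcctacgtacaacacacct
STAG2 exon: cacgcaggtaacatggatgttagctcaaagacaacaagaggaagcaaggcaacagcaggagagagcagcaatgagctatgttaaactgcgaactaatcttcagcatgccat
DEPDC1 exon, bases 198 to 317: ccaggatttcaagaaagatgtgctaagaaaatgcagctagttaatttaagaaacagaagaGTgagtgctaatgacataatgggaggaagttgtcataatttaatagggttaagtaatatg
BOD1 exon: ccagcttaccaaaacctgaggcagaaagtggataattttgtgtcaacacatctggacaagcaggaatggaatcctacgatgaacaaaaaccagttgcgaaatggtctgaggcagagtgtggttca

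All values are in PSI (percent spliced in), which runs from 0, when no transcript at that place carries the alternative part, to 1, when each of them does. A difference is PSI in a knockdown minus PSI in scramble, and an event is said to differ when that difference is 0.1 or more in either direction. MISO gives PSI itself for each knockdown and for scramble. The rMATS table gives only the authors' difference, read here as scramble minus knockdown because it ran against the MISO differences in all 6 targets, and its sign was turned. The limit of 0.1 is a rule of size: no column has a replicate, so no test was possible and no error can be given.

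By MISO, 33 of the 111 events (29.7%), in 21 genes, differed in at least 1 knockdown, against 21.5% of all events of the table. A retained intron of AURKB and 2 overlapping exon forms of DEPDC1 were lower in every knockdown. A small exon of ANAPC10 was lower by this rule in 5 of 6, and exons of NIN, BOD1 and KIF23 were higher in 3 or 4. For BOD1, another MISO event over the same exon was lower, and rMATS gave the first event the other sign. The other 78 events lay within 0.1 of scramble in all 6 knockdowns. Of the 33 events, 17 were only lower, 14 only higher and 2 both, and 12 differed in 1 knockdown, 12 in 2 or 3 and 9 in 4 or more. The like splits over all differing events were not counted, so these have no reference.

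Counted by target, 18 of the 111 events differed in PRMT1 knockdown (16.2%, against 7.40% of all events). Of these, 6 were higher, when 2.99% of all events were, and 12 lower, when 4.41% were. In PRMT3 knockdown the count was also 18 (16.2%, against 10.5% of all), with 9 higher (4.37% of all) and 9 lower (6.12% of all). PRMT4 knockdown had 12 (10.8%, against 7.47% of all), with 4 higher (3.23% of all) and 8 lower (4.24% of all). PRMT5 knockdown had 14 (12.6%, against 8.27% of all), with 7 higher (4.57% of all) and 7 lower (3.71% of all). In PRMT6 knockdown 13 differed (11.7%, against 6.84% of all), with 5 higher (2.50% of all) and 8 lower (4.33% of all). PRMT7 knockdown had the fewest, 10 (9.01%, against 6.34% of all), with 3 higher (2.54% of all) and 7 lower (3.80% of all). At 0.1 PSI the share was above that of the whole table in all 6, and all 6 rest on the same scramble column. Since the 42 genes were picked with earlier results of these data known, this higher share is no independent result about such genes. This order depended on the measure: at 0.05 PSI the share was below that of all events in PRMT1 knockdown (20.7%, against 21.4%) and PRMT7 knockdown (18.9%, against 19.9%), and on a logit scale, which counts small shifts near 0 and 1, it was below in all 6 (32.4 to 45.0%, against 42.5 to 49.8%). Among 147 other genes of mitosis and the cell cycle the share at 0.1 PSI was below that of all events in 5 of 6 knockdowns, with 5.85% in PRMT1 knockdown. The median difference was 0 for these genes and for all events in every knockdown. Events of these genes also stood at intermediate levels somewhat more often: 33.3% had a scramble PSI above 0.1 and under 0.9, against 27.2% of all. Among the 37 such events 15 (40.5%) differed in PRMT1 knockdown, against 22.1% of all such events, 15 (40.5%) in PRMT3 knockdown, against 32.4%, and 11 (29.7%) in PRMT4 knockdown, against 22.5%. The count was 13 (35.1%) in PRMT5 knockdown, against 26.5%, 13 (35.1%) in PRMT6 knockdown, against 21.6%, and 10 (27.0%) in PRMT7 knockdown, against 20.1%.

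**Figure D1:**
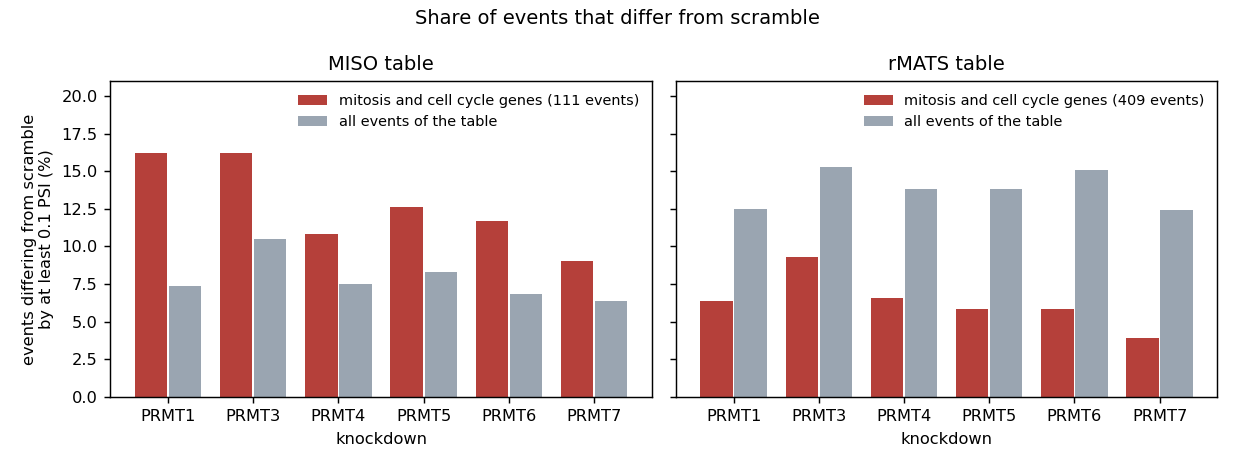
Bars give the percentage of events that differ from scramble by at least 0.1 PSI in each knockdown, for the mitosis and cell cycle genes (red) and for all events (grey), in the MISO table (left) and the rMATS table (right). The red bars stand above the grey ones in all 6 knockdowns by MISO (9.01 to 16.2%) and below them in all 6 by rMATS (3.91 to 9.29%).

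The rMATS table, which lists many more events per gene, gave the opposite order. In the authors' deposited table, of its 409 events of these genes, 58 (14.2%), in 23 genes, differed in at least 1 knockdown, against 25.9% of all its events. The count in the authors' deposited table was 26 in PRMT1 knockdown (6.36%, against 12.5% of all), 38 in PRMT3 knockdown (9.29%, against 15.3%) and 27 for PRMT4 knockdown (6.60%, against 13.8%). It was 24 in PRMT5 knockdown (5.87%, against 13.8%), 24 in PRMT6 knockdown (5.87%, against 15.1%) and 16 for PRMT7 knockdown (3.91%, against 12.4%) in the authors' deposited table. Whether the share lay above or below that of all events thus depended on the table. By role, the authors' deposited table had 5 differing events of 45 for kinases, 7 of 93 for the APC/C, 15 of 81 for the cyclin-dependent kinase group, 13 of 74 for the kinetochore, 15 of 91 for the spindle and cytokinesis and 2 of 8 for STAG2. In all, 30 of the 42 genes had a differing event in either table and 14 in both. A gene counts here once any of its events differs in any knockdown. The like share over all genes was not counted, so these gene counts have no reference.

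By MISO, retained introns and mutually exclusive exons gave the highest shares. Of 12 retained introns of these genes 7 differed in at least 1 knockdown (58.3%, against 31.2% of all introns in the MISO table), 4 of them only lower, 2 only higher and 1 in both directions. The split by direction was not counted over all introns. Mutually exclusive exons differed in 5 of 10, against 24.1% of all such events, although some of the 10 share exons. Cassette exons differed in 12 of 59 (20.3%, against 18.3%), alternative 3′ splice sites in 5 of 15 (33.3%, against 22.0%) and alternative 5′ splice sites in 4 of 15 (26.7%, against 26.1%). The share was below that of all events for each type in the authors' deposited table of rMATS values: 5 of 22 retained introns (22.7%, against 33.9%), 46 of 313 cassette exons (14.7%, against 24.6%), 1 of 46 alternative 3′ splice sites (2.17%, against 28.2%) and 6 of 28 alternative 5′ splice sites (21.4%, against 30.7%). Among cassette exons 29 of the 59 (49.2%) had a length that is a multiple of 3, as did 8 of the 12 that differed (66.7%), against 41.6% of all cassette exons. The share among all differing cassette exons was not counted, so the 12 have no like reference. Of the 28 differing events that are not mutually exclusive exons, 27 were found in GENCODE v29, where 11 lay wholly inside coding sequence of a transcript, 10 overlapped coding sequence in part, 4 lay between coding parts without overlap and 2 outside the coding region. Events of other genes were not looked up, so this split has no reference.

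Among the mitotic kinases 1 of 7 MISO events differed in at least 1 knockdown, against 21.5% of all MISO events. It was in AURKB, the enzyme of the chromosomal passenger complex that corrects wrong attachments between kinetochores and microtubules. PSI of its 287-base intron (chromosome 17, 8110207 to 8110493, GRCh37) was 0.27 for PRMT1, 0.34 for PRMT3, 0.35 for PRMT4, 0.30 for PRMT5, 0.21 for PRMT6 and 0.30 for PRMT7 knockdown, against 0.51 in scramble. All 6 knockdowns were thus below scramble, by 0.16 to 0.30, with PRMT6 knockdown the lowest. No rMATS value was matched to this intron, so it rests on MISO alone. This intron lies between the first and last coding base of 9 GENCODE v29 transcripts and overlaps coding sequence of 1 transcript in part. As printed above, it brings a stop codon into the frame. It was 1 of 3 events of these genes (2.70%) that differed in the same direction in all 6 knockdowns, against 58 of all 10358 events (0.560%). The 3 lay in 2 genes, since the other 2 are overlapping forms of 1 DEPDC1 exon between the same flanking exons. All 3 were lower, when 0.405% of all events were lower in all 6, and the 3 rest on a scramble value from 1 library. PLK1, the Polo kinase of mitotic entry, PLK4, which drives centriole duplication, and TTK, a checkpoint kinase, had no differing MISO event, the largest being 0.06 in PLK4.

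Among kinases seen only in the rMATS table, NEK2, which separates centrosomes before mitosis, had the largest values. Its 33-base alternative 5′ splice site part (chromosome 1, 211844511 to 211844543) was lower in the authors' deposited table, at -0.621 for PRMT1, -0.418 for PRMT3, -0.391 for PRMT4, -0.445 for PRMT5, -0.528 for PRMT6 and -0.550 for PRMT7 knockdown. This part was not found in GENCODE v29 and has no MISO value, so it rests on that table and its single scramble library alone. For a 110-base exon of AURKA, the Aurora kinase of centrosomes and spindle poles, the authors' deposited table gave 0.078 to 0.149 higher PSI, with PRMT4, PRMT5 and PRMT6 knockdown past 0.1. The authors' deposited table has 4 more events over the same 110 bases with other flanks, of which one was lower in all 6, at -0.078 to -0.018, and the others were at -0.055 to 0.027, 0.022 to 0.106 and -0.031 to 0.089. A 73-base exon of AURKB was higher by 0.299 in 5 knockdowns and by 0.133 in PRMT5 knockdown in the authors' deposited table, where a second event over the same bases was at -0.033 to 0.032. How many reads lie behind a value that recurs in 5 columns is unknown.

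APC/C genes had 4 differing MISO events among 21, against 21.5% of all MISO events. The largest was in ANAPC10, a subunit that helps to bind substrates. PSI of its 38-base exon was 0.16 for PRMT1, 0.12 for PRMT3, 0.19 for PRMT4, 0.10 for PRMT5, 0.11 for PRMT6 and 0.09 for PRMT7 knockdown, against 0.27 in scramble. The exon was included less in all 6, past 0.1 in all but PRMT4 knockdown, where the difference was -0.08. In the authors' deposited table the same exon was lower in all 6, at -0.098 for PRMT1, -0.111 for PRMT3, -0.091 for PRMT4, -0.134 for PRMT5, -0.101 for PRMT6 and -0.127 for PRMT7 knockdown. Both tables thus put this exon below scramble in all 6 knockdowns. A 73-base exon of ANAPC10, without a MISO value, was also lower in all 6 in the authors' deposited table, at -0.128 to -0.032. A second event over the same 73 bases was at -0.114 to -0.004.

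CDC16, a scaffold subunit of the APC/C, retained more of an 82-base intron outside its coding region (chromosome 13, 115037957 to 115038038, GRCh37). PSI reached 0.68 for PRMT4, 0.66 for PRMT5 and 0.65 for PRMT1 knockdown, 0.64 for PRMT3, 0.57 for PRMT6 and 0.53 for PRMT7 knockdown, against 0.55 in scramble. The authors' deposited table gave 0.166 for PRMT1, 0.174 for PRMT4, 0.20 for PRMT5 and 0.101 for PRMT6 knockdown, and 0.044 for PRMT3 and 0.027 for PRMT7 knockdown. PRMT1, PRMT4 and PRMT5 knockdown were thus past 0.1 in both tables, and PRMT3 and PRMT7 knockdown in neither. A 55-base exon of CDC16 stood out in PRMT5 knockdown alone in the authors' deposited table, at 0.201, against -0.055 to 0.072 in the others, and a second event over the same bases was at -0.002 to 0.051. Smaller MISO differences occurred in ANAPC7, where a 225-base mutually exclusive exon was at 0.40 to 0.49 in the knockdowns and 0.36 in scramble, and in CDC27, where a 3-base alternative 3′ splice site part was at 0.34 in PRMT5 knockdown and 0.45 in scramble. For this CDC27 part the authors' deposited table gave 0.0 in PRMT5 knockdown. No MISO event differed in ANAPC5, where the largest difference was 0.06, in ANAPC11, the RING subunit, where it was 0.04, or in CDC23. CDC20, the activator that the spindle checkpoint holds back, had no event with a value in every column of either table.

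In the group of cyclin-dependent kinases, CCNE1 and the CDC25 phosphatases 8 of 28 MISO events differed, against 21.5% of all MISO events. None differed in all 6 knockdowns. CDC25C, the phosphatase that switches on CDK1, used a 4-base alternative 3′ splice site part (chromosome 5, 137666904 to 137666907) at 0.43 for PRMT1, 0.50 for PRMT3, 0.45 for PRMT4, 0.50 for PRMT5, 0.54 for PRMT6 and 0.41 for PRMT7 knockdown, against 0.39 in scramble. All 6 were above scramble and 3 of them past 0.1. CDK2, the kinase of S phase entry, used the longer form of an 810-base alternative 5′ splice site part at 0.17 for PRMT1, 0.31 for PRMT3, 0.15 for PRMT4, 0.38 for PRMT5, 0.10 for PRMT6 and 0.25 for PRMT7 knockdown, against 0.19 in scramble. Here the knockdowns lay on both sides of scramble, with PRMT5 and PRMT3 high and PRMT6 low.

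CDK4, the G1 kinase that pairs with D cyclins, had 19 events in the MISO table, most over the same few exons. A 56-base alternative 3′ splice site part (chromosome 12, 58145480 to 58145535, GRCh37) was at 0.80 for PRMT1, 0.86 for PRMT3, 0.66 for PRMT4, 0.56 for PRMT5, 0.77 for PRMT6 and 0.75 for PRMT7 knockdown, against 0.69 in scramble. PRMT3 and PRMT1 knockdown were high and PRMT5 knockdown was low. Scored as a mutually exclusive exon, the exon of this part was lower throughout, both without and with the 56 bases. The 197-base form was at 0.25 for PRMT1, 0.31 for PRMT3, 0.29 for PRMT4, 0.40 for PRMT5, 0.34 for PRMT6 and 0.31 for PRMT7 knockdown, against 0.43 in scramble, and the 253-base form, which contains it, at 0.34 to 0.42 in the knockdowns and 0.49 in scramble. Smaller MISO differences were found for a 102-base exon of CDK2 (0.99 in PRMT3 knockdown, 0.88 in scramble), a 2272-base intron of CDK1 (0.24 in PRMT7 knockdown, 0.14 in scramble) and a 134-base 3′ splice site part of CDK10, a kinase that pairs with cyclin M (0.83 in PRMT1 knockdown, 0.97 in scramble). In the authors' deposited table this CDK2 exon was at 0.092 in PRMT3 knockdown, and the CDK10 part at only -0.011 in PRMT1 knockdown.

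The largest rMATS values of this group were in CDC25C and CDK4. An 84-base exon of CDC25C (chromosome 5, 137625169 to 137625252, GRCh37) was lower in the authors' deposited table, at -0.103 for PRMT1, -0.426 for PRMT3, -0.119 for PRMT4, -0.476 for PRMT5, -0.309 for PRMT6 and -0.092 for PRMT7 knockdown. Read with another flanking exon, the same 84 bases differed by -0.014 to 0.049 in the authors' deposited table, so the value belongs to the event and not to the exon as a whole. The same holds for its 90-base exon, which in the authors' deposited table was at 0.259 in PRMT1 knockdown and -0.15 for PRMT7 knockdown with a first pair of flanks, and at -0.055 and -0.083 in those knockdowns with another. A 122-base exon of CDK4 (chromosome 12, 58144225 to 58144346) was higher in the authors' deposited table by 0.562 for PRMT1, 0.022 for PRMT3, 0.253 for PRMT4, 0.381 for PRMT5, 0.182 for PRMT6 and 0.718 for PRMT7 knockdown. With other flanks the same 122 bases were at -0.001 to 0 in the authors' deposited table. For a 51-base exon of CDK4 the authors' deposited table gave 0.135 for PRMT1, 0.262 for PRMT6 and 0.050 for PRMT7 knockdown and 0.309 in each of the other 3, while another event over these bases was at 0.008 to 0.019. For a 55-base exon of CDK10 the authors' deposited table gave -0.245 for PRMT6, -0.148 for PRMT1 and -0.140 for PRMT3 knockdown, with the other 3 between -0.099 and 0.038. Of CCNE1, CDC25A and CDC25B, which had no complete MISO event, CCNE1 and CDC25B each had 1 differing event in the authors' deposited table, at most 0.140 in size, and CDC25A had none.

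Centromere and kinetochore genes had 5 differing MISO events among 12, against 21.5% of all MISO events. CENPT, which connects centromeric DNA to the microtubule-binding Ndc80 complex, gave 2 of the 5, both retained introns. The 301-base intron (chromosome 16, 67863992 to 67864292, GRCh37) was at 0.52 for PRMT1, 0.74 for PRMT3, 0.47 for PRMT4, 0.52 for PRMT5, 0.56 for PRMT6 and 0.61 for PRMT7 knockdown, against 0.64 in scramble. PRMT3 knockdown was the only column above scramble, and the authors' deposited table had the same split, with 0.112 in PRMT3 knockdown and -0.105 for PRMT1, -0.098 for PRMT4, -0.068 for PRMT5, -0.102 for PRMT6 and -0.035 for PRMT7 knockdown. The 667-base intron next to it was at 0.35 for PRMT1, 0.33 for PRMT3, 0.44 for PRMT4, 0.50 for PRMT5, 0.34 for PRMT6 and 0.40 for PRMT7 knockdown, against 0.50 in scramble, so here PRMT3 knockdown was the lowest. For this longer intron the authors' deposited table gave -0.128 to -0.023 with every knockdown below 0. A 91-base intron of CENPT was also lower in the authors' deposited table, at -0.174 for PRMT1, -0.102 for PRMT3, -0.213 for PRMT4, -0.129 for PRMT5 and -0.135 for PRMT6 knockdown, and was at 0.010 in PRMT7 knockdown. Its 121-base exon was higher in all 6 columns of the authors' deposited table, by 0.144 to 0.644, with 0.644 in 3 of them.

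BOD1, which holds a phosphatase in check so that chromosomes align on the spindle, showed the largest MISO difference of all 42 genes. PSI of its 125-base coding exon (chromosome 5, 173040134 to 173040258, GRCh37) was 0.71 for PRMT1, 0.67 for PRMT3, 0.90 for PRMT4, 0.48 for PRMT5, 0.58 for PRMT6 and 0.47 for PRMT7 knockdown, against 0.39 in scramble. The exon was higher in all 6, past 0.1 for PRMT1, PRMT3, PRMT4 and PRMT6 knockdown. For the same event the authors' deposited table gave small values of the other sign, -0.050 to -0.017. Another MISO event over the same 125 bases with another flanking exon stayed at 0.98 to 0.99 in the knockdowns and 0.99 in scramble, and as a mutually exclusive exon the 125 bases were lower, at 0.79 for PRMT1, 0.80 for PRMT3, 0.69 for PRMT4, 0.90 for PRMT5, 0.83 for PRMT6 and 0.87 for PRMT7 knockdown, against 0.91 in scramble. The direction for BOD1 thus turned with the event and with the table, and it is given as values only. NUF2, a subunit of the Ndc80 complex, had a 146-base 5′ splice site part at 0.70 in PRMT3 knockdown and 0.91 for PRMT6 knockdown, against 0.77 in scramble.

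CENPA, CENPE and CENPK had no complete MISO event. A 332-base exon of CENPA, the histone H3 variant that marks centromeres, was lower in all 6 columns of the authors' deposited table, at -0.115 for PRMT1, -0.156 for PRMT3, -0.189 for PRMT4, -0.090 for PRMT5, -0.15 for PRMT6 and -0.091 for PRMT7 knockdown. For a 68-base exon of CENPK, part of the inner kinetochore, the authors' deposited table gave 0.327 for PRMT1, PRMT3 and PRMT4 knockdown, 0.194 for PRMT5, -0.041 for PRMT6 and 0.245 for PRMT7 knockdown. The kinesin CENPE had 2 differing events in the authors' deposited table, between -0.116 and 0.132.

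**Figure D2:**
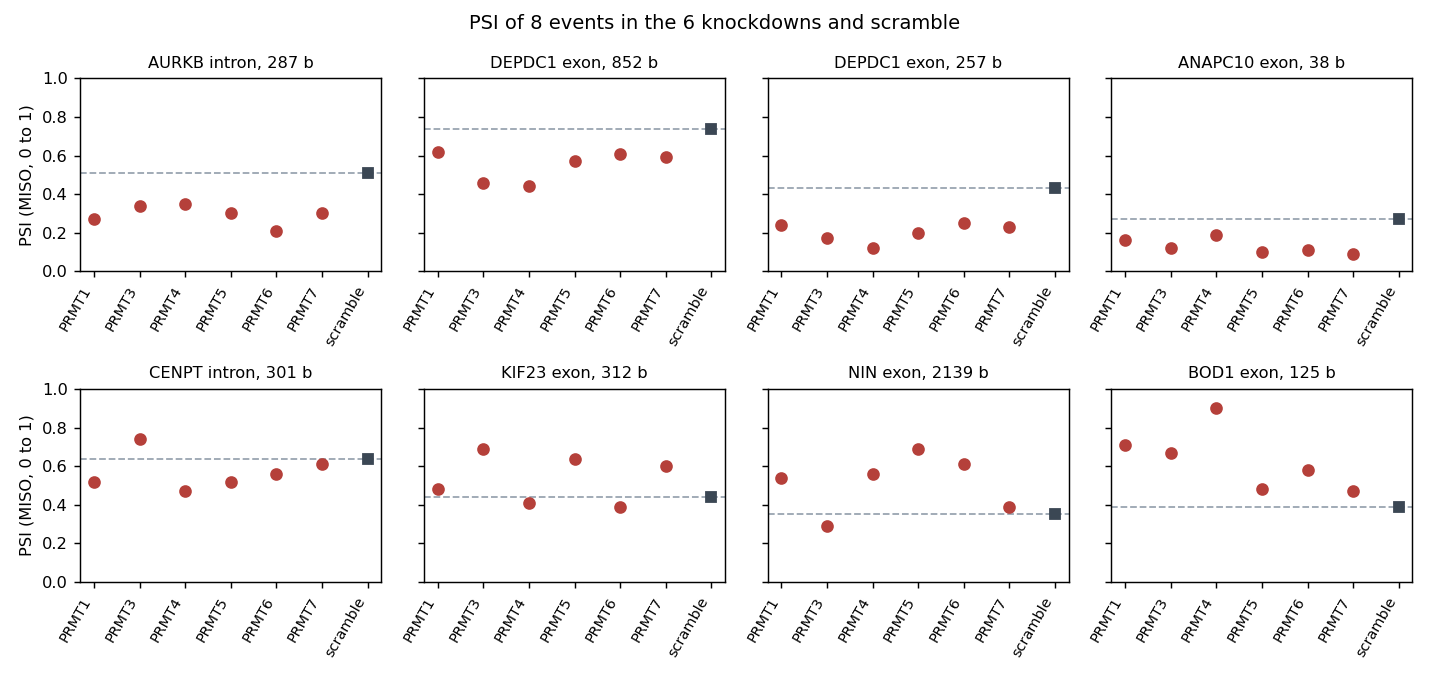
Points are PSI by MISO of 8 events in the 6 knockdowns (red circles) and in scramble (dark square, dashed line), on an axis from 0 to 1, with 1 value per column. AURKB, DEPDC1 and ANAPC10 lie below the line in all 6 knockdowns, BOD1 above it in all 6, and CENPT, KIF23 and NIN on both sides.

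Spindle checkpoint genes had 2 differing MISO events among 5, against 21.5% of all MISO events. They had 1 of 17 in the authors' deposited table, against 25.9% of all its events. BUB3, which carries BUB1 and BUBR1 to kinetochores, had 2 overlapping events that differed in PRMT6 knockdown alone. Its 2218-base intron was at 0.26 in PRMT6 knockdown and 0.33 to 0.41 in the other knockdowns, against 0.40 in scramble, and the 1227-base 3′ splice site part within it at 0.38 in PRMT6 knockdown and 0.51 in scramble. BUB1B, which encodes BUBR1, stayed within 0.01 of scramble by MISO, and BUB1 within 0.004 in the authors' deposited table. MAD1L1, which recruits MAD2 to unattached kinetochores, had 1 differing event in the authors' deposited table, at -0.123 in PRMT1 knockdown.

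Spindle, centrosome and cytokinesis genes held 12 of the 33 differing MISO events, in 6 of their 7 genes with a MISO value. These were 12 of their 37 MISO events, against 21.5% of all MISO events. DEPDC1, a mitotic protein with a DEP domain, had less of both forms of an exon in all 6 knockdowns. The 852-base form (chromosome 1, 68947729 to 68948580, GRCh37) was at 0.62 for PRMT1, 0.46 for PRMT3, 0.44 for PRMT4, 0.57 for PRMT5, 0.61 for PRMT6 and 0.59 for PRMT7 knockdown, against 0.74 in scramble. The 257-base form, which starts at the same splice site and ends at the GT shown in its sequence, was at 0.24 for PRMT1, 0.17 for PRMT3, 0.12 for PRMT4, 0.20 for PRMT5, 0.25 for PRMT6 and 0.23 for PRMT7 knockdown, against 0.43 in scramble. PRMT4 knockdown was the lowest for both forms. Both were scored against the same skipped form, so they are not separate observations. Set against the short form, the long form was at 0.96 to 0.99 in the knockdowns and 0.98 in scramble. The long form was lower in the authors' deposited table too, at -0.011 for PRMT1, -0.112 for PRMT3, -0.088 for PRMT4, -0.188 for PRMT5, -0.071 for PRMT6 and -0.082 for PRMT7 knockdown, and an event over the 257 bases ranged from -0.133 to -0.014 in the authors' deposited table. The tables thus shared the direction in 6 of 6 knockdowns but not the size. The exon is coding, and the long form keeps the frame while the short form does not.

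NIN encodes ninein, which anchors microtubules at the centrosome. Its 2139-base coding exon (chromosome 14, 51223210 to 51225348, GRCh37), which keeps the frame, was at 0.54 for PRMT1, 0.29 for PRMT3, 0.56 for PRMT4, 0.69 for PRMT5, 0.61 for PRMT6 and 0.39 for PRMT7 knockdown, against 0.35 in scramble. PRMT5 knockdown was highest, and PRMT3 knockdown lay below scramble. In the authors' deposited table every knockdown was higher, by 0.142 for PRMT1, 0.089 for PRMT3, 0.098 for PRMT4, 0.204 for PRMT5, 0.208 for PRMT6 and 0.051 for PRMT7 knockdown, so the sign differed between the tables for PRMT3 knockdown alone.

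KIF23, the motor subunit of centralspindlin that builds the midzone of dividing cells, had 2 exons that differed, both keeping the frame. The 312-base exon (chromosome 15, 69733107 to 69733418, GRCh37) was at 0.48 for PRMT1, 0.69 for PRMT3, 0.41 for PRMT4, 0.64 for PRMT5, 0.39 for PRMT6 and 0.60 for PRMT7 knockdown, against 0.44 in scramble. PRMT3, PRMT5 and PRMT7 knockdown formed the high group, with the other 3 within 0.05 of scramble. For this exon the authors' deposited table gave 0.209 for PRMT3, 0.161 for PRMT4, 0.080 for PRMT7 and 0.071 for PRMT5 knockdown, and -0.007 for PRMT1 and -0.053 for PRMT6 knockdown. PRMT4 knockdown was thus above scramble in that table and 0.03 below it by MISO. Scored as a mutually exclusive exon, the 312 bases were at 0.33 for PRMT1, 0.56 for PRMT3, 0.31 for PRMT4, 0.35 for PRMT5, 0.31 for PRMT6 and 0.47 for PRMT7 knockdown, against 0.32 in scramble. The 42-base exon of KIF23 was higher in all 6 columns of the authors' deposited table, by 0.108 for PRMT1, 0.224 for PRMT3, 0.134 for PRMT4, 0.071 for PRMT5, 0.085 for PRMT6 and 0.170 for PRMT7 knockdown.

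NUMA1, which tethers microtubules at spindle poles, included its 42-base exon (chromosome 11, 71723447 to 71723488, GRCh37) at 0.23 for PRMT1, 0.31 for PRMT3, 0.43 for PRMT4, 0.32 for PRMT5, 0.21 for PRMT6 and 0.33 for PRMT7 knockdown, against 0.24 in scramble. PRMT4 knockdown was the only column past 0.1. In the authors' deposited table this exon had its highest value in PRMT4 knockdown as well, 0.078, and its lowest in PRMT6 knockdown, -0.020. A 1252-base intron of NUMA1 was at 0.17 in PRMT4 knockdown and 0.28 in scramble. Farther upstream in the gene, a 121-base exon was higher in all columns of the authors' deposited table, by 0.164 for PRMT1, 0.152 for PRMT3, 0.270 for PRMT4, 0.341 for PRMT5, 0.097 for PRMT6 and 0.143 for PRMT7 knockdown, while a second event over the same 121 bases was at -0.035 to 0.017. A 26-base 5′ splice site part was at 0.512 in PRMT4 knockdown and -0.061 to 0.135 in the others in the authors' deposited table.

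PRC1 bundles antiparallel microtubules in the midzone, and its 42-base exon (chromosome 15, 91512309 to 91512350, GRCh37) showed how far a value depends on the flanking exons. In the event that differed, PSI was 0.49 for PRMT1, 0.39 for PRMT3, 0.45 for PRMT4, 0.51 for PRMT5, 0.38 for PRMT6 and 0.38 for PRMT7 knockdown, against 0.49 in scramble. With other flanks the same 42 bases were at 0.17 to 0.27 in the knockdowns and 0.19 in scramble, and at 0.11 to 0.16 in the knockdowns and 0.08 in scramble. In the authors' deposited table the first of these events was at -0.101 to 0.001, another at 0.051 to 0.166, and 2 more at -0.051 to 0.020 and -0.044 to 0.048. Of the other PRC1 events, a 77-base 5′ splice site part was at 0.44 in PRMT6 knockdown and 0.33 in scramble, a 249-base part at 0.82 in PRMT3 knockdown and 0.93 in scramble, and a 235-base exon at 0.83 in PRMT1 knockdown and 0.93 in scramble. For the 235-base exon the authors' deposited table gave only -0.008 in PRMT1 knockdown. ECT2, the exchange factor that starts furrow ingression, included a 267-base exon at 0.04 to 0.13 in the knockdowns and 0.03 in scramble. NUSAP1 stayed within 0.03 by MISO, and TPX2, which activates Aurora A, and INCENP, the scaffold of Aurora B, had no differing event in the authors' deposited table.

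STAG2, the cohesin subunit, had a single MISO event, its 111-base coding exon (chromosome X, 123224704 to 123224814, GRCh37). PSI was 0.33 for PRMT1, 0.38 for PRMT3, 0.34 for PRMT4, 0.44 for PRMT5, 0.40 for PRMT6 and 0.45 for PRMT7 knockdown, against 0.43 in scramble, and PRMT1 knockdown reached a difference of -0.10. The authors' deposited table put the exon at -0.048 to 0 across the 6 knockdowns. Its differing STAG2 events lay over another exon (chromosome X, 123155217 to 123155281). With different flanks, that exon was at -0.139, -0.126 and -0.094 in PRMT3 knockdown, and at -0.091 to 0.088 in the other knockdowns.

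**Figure D3:**
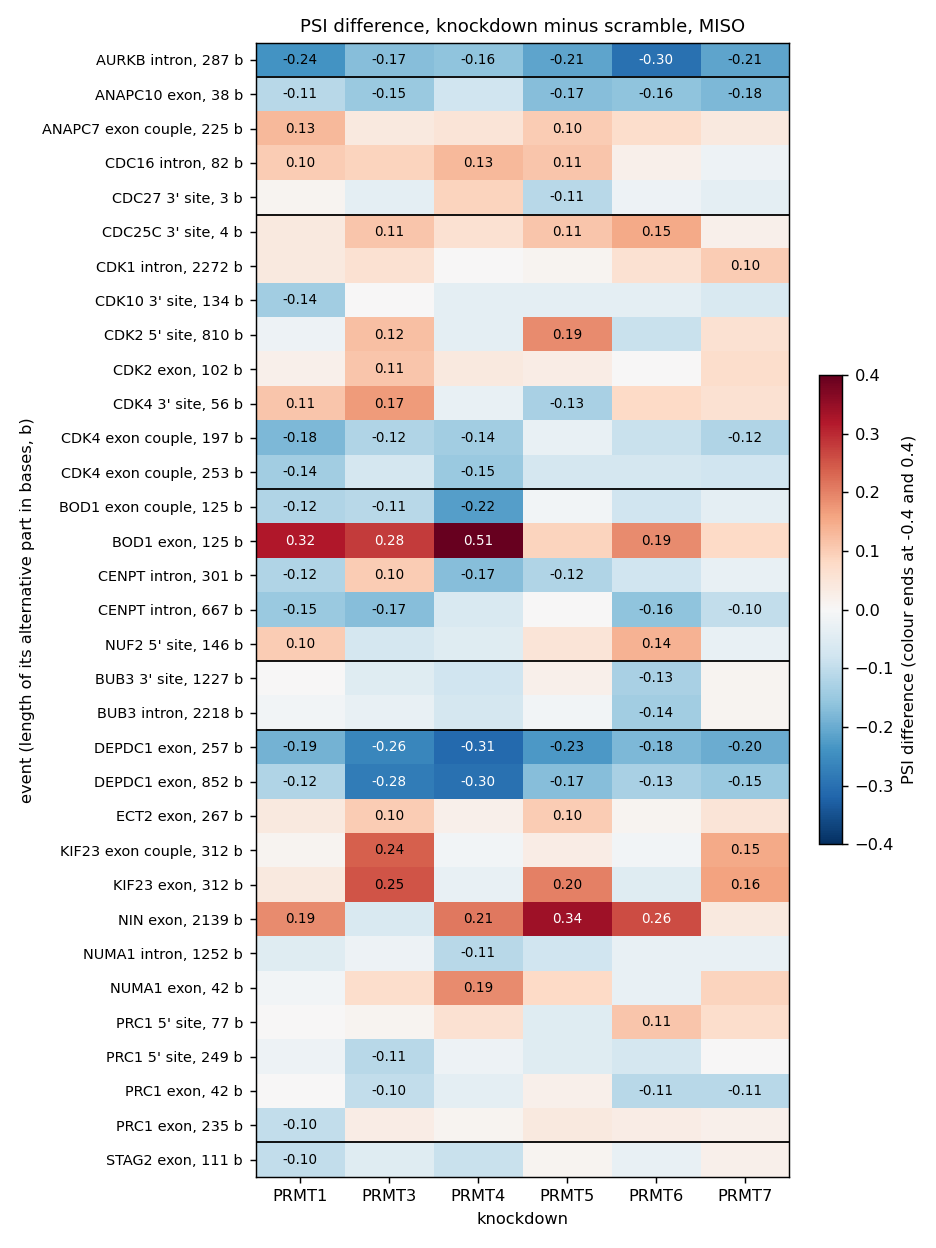
Rows are the 33 MISO events that differ in at least 1 knockdown, grouped by role, and cells give the PSI difference, knockdown minus scramble (red higher, blue lower, printed where 0.1 or more in size). The AURKB intron and both DEPDC1 exons are blue across the row, and the darkest red cell is the BOD1 exon in PRMT4 knockdown, 0.51.

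Of the events of these genes in the rMATS table, 4 (0.978%) differed in the same direction in all 6 knockdowns, against 3.79% of all. They were the NEK2 splice site, lower, and the 73-base AURKB, 121-base CENPT and a 136-base CDK4 exon, higher. Of these, only the CENPT exon was found in GENCODE v29 with its flanks. The CDK4 exon was at 0.191 to 0.270 in the authors' deposited table, and with other flanks it stayed near 0 there and at 1 in every MISO column.

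**Figure D4:**
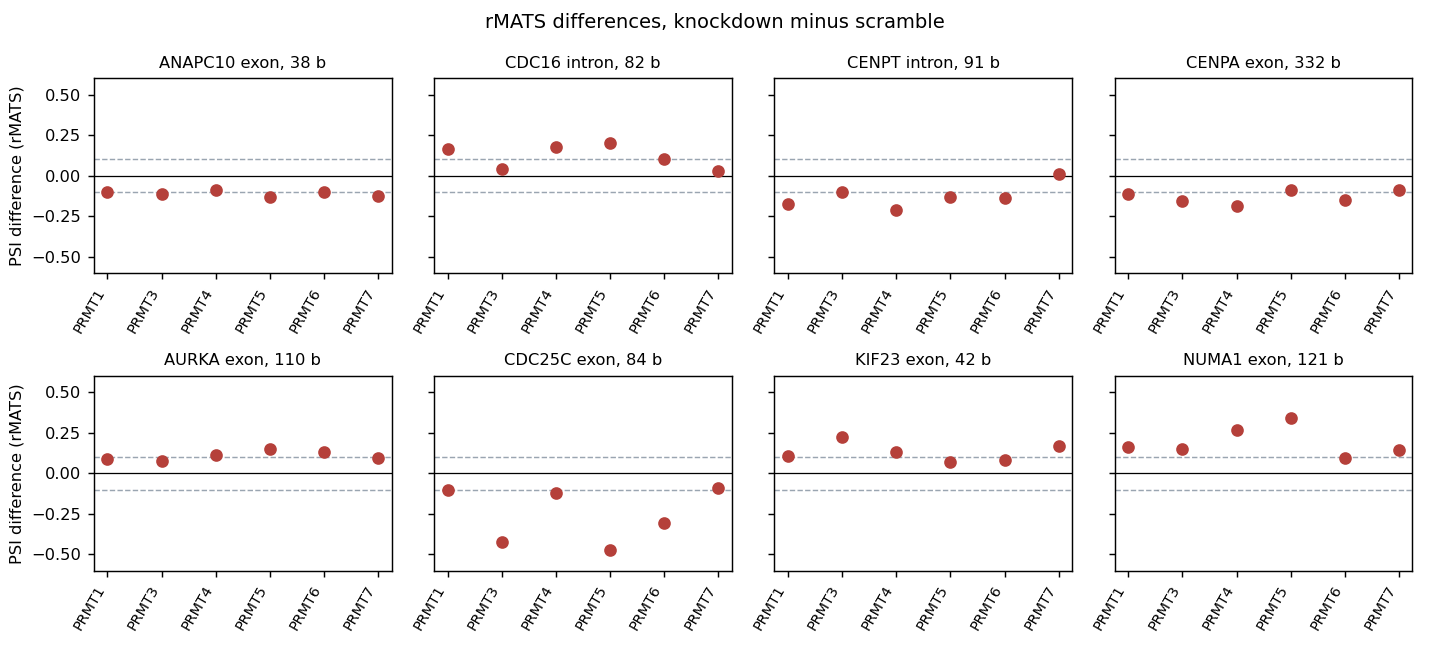
Points are differences in PSI from the authors' rMATS table, knockdown minus scramble after the sign was turned, for 8 events, with dashed lines at -0.1 and 0.1. ANAPC10, CENPA and CDC25C lie below 0 in all 6 knockdowns and AURKA, CDC16, KIF23 and NUMA1 above 0 in all 6.

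Both tables held 77 of the events, matched by their splice junctions. Of the 85 MISO differences of these genes summed over the knockdowns, 45 had a value in the authors' deposited table. There, 40 of the 45 lay on the same side of 0, and 17 were also 0.1 or more in size. The share on the same side was above that over all genes in PRMT1 knockdown (90.0%, against 86.6%), PRMT4 knockdown (85.7%, against 79.6%) and PRMT7 knockdown (5 of 5 events, against 89.8%). It was below it in PRMT3 knockdown (88.9%, against 90.8%), PRMT5 knockdown (87.5%, against 87.9%) and PRMT6 knockdown (83.3%, against 90.1%), and it rests on 5 to 10 events per knockdown. The share over all genes is no independent support, since the sign of the authors' deposited table was set from it.

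**Figure D5:**
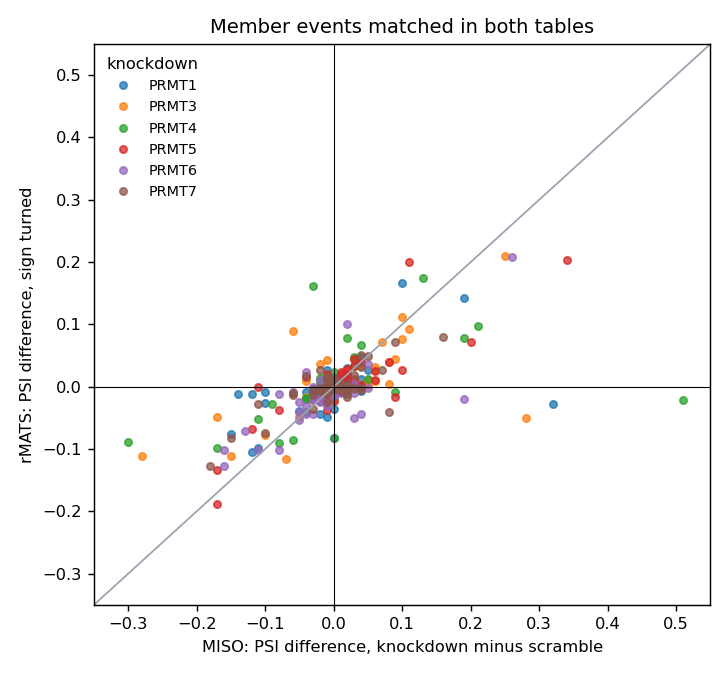
Each point is an event of these genes in 1 knockdown, with the MISO difference on the horizontal axis and the rMATS difference, sign turned, on the vertical axis, both in PSI. The grey line marks equal values. The point farthest from it is the BOD1 exon in PRMT4 knockdown, at 0.51 and -0.021.

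Set against each other without scramble, the 6 knockdowns ranged over 0.1 PSI or more in 37 of the 111 events (33.3%, against 26.7% of all) and over 0.2 or more in 11 (9.91%, against 7.91%). The widest ranges were those of the BOD1 exon, 0.43, the NIN exon, 0.40, and 0.30 each for the KIF23 exon and the CDK4 splice site. In 12 of the 33 differing events scramble lay outside the range of the 6 knockdowns (36.4%, against 30.2% of all differing events). With the mean of the other 5 knockdowns in place of scramble, 2 events differed in PRMT1 knockdown (3.68% of all events did), 8 in PRMT3 knockdown (7.01% of all), 7 in PRMT4 knockdown (3.86% of all), 10 in PRMT5 knockdown (5.99% of all), 9 in PRMT6 knockdown (4.49% of all) and 3 in PRMT7 knockdown (3.01% of all). Against scramble the PRMT1 count had been 18, and without it the shares in PRMT1 knockdown (1.80%) and PRMT7 knockdown (2.70%) were below those of all events.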

How the data were processed

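The RNA of 12 libraries was poly(A)-selected and sequenced strand by strand in read pairs, per the labels' protocols. The submitters' processing notes name cutadapt 1.18, HISAT and the build GRCh37. For MISO and rMATS the sources used here give neither version nor setting, nor how several hairpins were merged into 1 column. The authors deposited MISO values as PSI, a fraction from 0 to 1, and rMATS differences in PSI, a signed score, per the file headers. Read numbers are not used here, so depth is unknown and no interval is given.

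The direction of the deposited rMATS score is not stated. Its correlation with knockdown minus scramble by MISO over all matched events was negative in all 6 targets, with a median of -0.458, so its sign was turned. Events were matched between the tables by splice junctions. An event differed at 0.1 PSI or more. A linear model in limma, a replicate block and leaving out a hairpin had been planned but need a value per library. The 42 genes, their roles and the lists were chosen with earlier results of these data known. Values in every column are printed for MISO events that differ, and for at most 2 rMATS events per gene that differ by 0.1 in 3 targets in 1 direction or by 0.2 in any. Most events under 0.15 are given by range or by their extreme column. The CDC16 intron and the STAG2 and 42-base PRC1 exons are under 0.15 by MISO but are printed in full. Other events with values, such as those over the same exon with other flanks and the 136-base CDK4 exon, were chosen after their values were seen. Of other mitosis genes, counts are given and values for the 3 with the largest MISO difference. Python 3.11.15, numpy 2.4.6, pandas 2.3.3 and matplotlib 3.10.9 were used, and the counting was tested on simulated data. The MISO table has 1 line without values, which was left out. Exon sequences and transcripts are from GENCODE v29, matched by structure. Among the rMATS parts not found by this match were the 84-base CDC25C, 51-base CDK4, 68-base CENPK and 121-base NUMA1 exons. The sequence of 1 alternative part is not reported here.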

Additional observations from a re-analysis of the deposited data

How the results depend on the processing

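Counts of events of the 42 genes are given for PRMT1, PRMT3, PRMT4, PRMT5, PRMT6 and PRMT7 knockdown, always in this order. At 0.1 PSI they were 18, 18, 12, 14, 13 and 10 by MISO and 26, 38, 27, 24, 24 and 16 by rMATS. At 0.2 PSI they were 2, 5, 5, 4, 2 and 2 by MISO and 9, 9, 9, 10, 9 and 6 by rMATS. At 0.05 PSI they were 23, 34, 27, 26, 30 and 21 by MISO and 61, 87, 73, 55, 55 and 55 by rMATS. On a logit scale, with the step that takes 0.5 to 0.6, MISO gave 45, 50, 41, 43, 46 and 36, since small shifts near 0 and 1 then count. With the mean of the other 5 knockdowns in place of scramble MISO gave 2, 8, 7, 10, 9 and 3, and with 1 event per gene and type 11, 11, 7, 12, 9 and 7. A filter on mean PSI left the MISO counts as they were. So did the looser rule that asks for a value only in scramble and in the target concerned. In rMATS, events with a value in the target concerned gave 50, 53, 43, 35, 36 and 35, and those matched to a complete MISO event 3, 5, 2, 4, 6 and 1. Without the 4 events that repeat a value in 3 or more columns, rMATS gave 22, 34, 23, 20, 21 and 13. The MISO share of these genes, above that of all events in all 6 knockdowns at 0.1 and 0.2 PSI, was above it in 4 of 6 at 0.05 PSI and against the other 5 knockdowns, and in none on the logit scale (32.4 to 45.0%, against 42.5 to 49.8%). The rMATS share was below that of all events at each threshold in all 6 and, among events matched to a complete MISO event, above it in 4. The last pair of alternatives in rMATS was chosen after the data were seen.

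No paired analysis was possible because the deposited columns hold 1 value per target, and leaving out each hairpin was not run for the same reason. Neither the spread between hairpins nor the spread of scramble is known, so a difference near 0.1 may lie within either. Read numbers are not used here, so no counting error can be stated for any event. Events of a gene share exons: the 111 MISO events cover 104 alternative parts, and CDK4 and PRC1 supply 19 and 18 of them. The rMATS sign was set from the data.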

Other observations

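Among 147 other genes of mitosis and the cell cycle, 171 MISO events in 68 genes had a value in every column. Of these, 10 differed from scramble in PRMT1 knockdown (5.85%, against 7.40% of all events), 17 in PRMT3 knockdown (9.94%, against 10.5%), 12 in PRMT4 knockdown (7.02%, against 7.47%) and 12 for PRMT5 knockdown (7.02%, against 8.27%). PRMT6 knockdown had 16 (9.36%, against 6.84%) and PRMT7 knockdown 10 (5.85%, against 6.34%). The shares of these genes thus lay below that of all events in 5 knockdowns and above it in PRMT6 knockdown. In the authors' deposited table, between 30 and 56 of their 871 events differed, 3.44 to 6.43%, below the share of all events in each knockdown.

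The largest MISO differences of this wider list were in CDCA3, a mitotic entry factor, MIS12, a kinetochore subunit, and ANLN, which encodes the contractile ring protein anillin. A 91-base exon of CDCA3 (chromosome 12, 6958487 to 6958577, GRCh37) was at 0.48 for PRMT1, 0.67 for PRMT3, 0.49 for PRMT4, 0.83 for PRMT5, 0.40 for PRMT6 and 0.58 for PRMT7 knockdown, against 0.56 in scramble. PRMT5 knockdown was high and PRMT6 knockdown low, and in the authors' deposited table the same columns were the extremes, at 0.232 and -0.165. A 264-base 5′ splice site part of MIS12 was at 0.34 for PRMT1, 0.51 for PRMT3, 0.51 for PRMT4, 0.32 for PRMT5, 0.43 for PRMT6 and 0.29 for PRMT7 knockdown, against 0.24 in scramble, so all 6 knockdowns were higher. A 127-base mutually exclusive exon of ANLN was at 0.54 for PRMT1, 0.79 for PRMT3, 0.58 for PRMT4, 0.70 for PRMT5, 0.68 for PRMT6 and 0.72 for PRMT7 knockdown, against 0.78 in scramble.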
